A study of Mus musculus with 18 samples.

Results

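Mitosis, spindle and kinetochore genes are described here in 6 sorted populations of mouse T cells. The members were chosen by name, as 59 genes that act in mitotic entry, the spindle checkpoint, the kinetochore, the mitotic spindle, anaphase, cytokinesis or chromosome structure. All 59 were among the 15402 genes of the deposited table, and all 59 were among the 13190 genes tested, which are those whose log2 values averaged at least 3.

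All mice were female C57/BL6 animals that carried both Foxp3Timer and Foxp3-IRES-GFP, and the labels give no age. Foxp3Timer is a transgene in which Foxp3 regulatory sequence drives a fluorescent protein that is blue when made and then matures to a stable red form. The abdominal skin was painted with 3% oxazolone, a contact sensitiser, and cells were sorted on day 5 from the inguinal and axillary lymph nodes, so that every population, controls included, came from sensitised mice. Each of the 6 populations had 3 libraries, and each library was made from a pool of 3 mice. Whether libraries of different populations shared a pool is not stated outright.

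All populations are labelled as CD4+ T cells, and lymph node cells were stained for CD4 and CD44 before the sort. Tnaive cells were CD44-low and Timer-negative, and Teff cells were CD44-high and Timer-negative. Both were also GFP-negative. The other 4 populations were Timer-positive, are labelled CD4+GFP+, and were told apart by their Timer fluorescence. Pers1 was Blue-intermediate and Red-low, Pers2 was Blue-high and Red-high, PAt was Blue-low and Red-high, and Arrested was Blue-negative and Red-intermediate. The series design names Pers1 and Pers2 as persistent Foxp3 expressors, while the sample labels call the same 4 populations, in this order, de novo, maturing, mature and decaying expressers. Persistent expressors below means the 6 Pers1 and Pers2 libraries, and PAt and Arrested are likewise joined unless named singly.

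To divide, a cell activates cyclin-dependent kinase with B-type cyclins, condenses its chromosomes, builds a spindle, and attaches each chromosome to it through the kinetochore, the protein assembly on the centromere. The spindle checkpoint holds back the anaphase-promoting complex until all chromosomes are attached. Many of the genes involved are transcribed mainly in late cell cycle, so their RNA is scarce in resting naive T cells and abundant in a population that contains many dividing cells. In these bulk libraries, more dividing cells and more RNA per dividing cell cannot be told apart.

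The values are log2 normalised counts in a form that draws genes with few reads towards their mean, so that folds of low genes are understated. The number of reads per library is unknown. A gene was called when its adjusted p from limma was under 0.05 and its log2 fold change was over 1 in size. The T-cell markers were present throughout, with Cd4 between 14.49 and 15.67 and Cd3e between 13.66 and 13.87 as population means. B-cell markers were also present in every population, and the sum of the 7 on the linear scale was 806 to 1063 in Tnaive, 1553 to 1872 in Pers1 and Pers2, 2587 to 3884 in PAt and Arrested, and 3126 to 4989 in Teff. The sum of the 2 CD8 markers was 2919 to 4087 in Teff and 803 to 1666 elsewhere. The sum of the 7 myeloid markers was 1968 to 2379 in Teff and 553 to 1046 elsewhere, with Cd14 below 1 in each population. A gate on CD4 would remove B cells and CD8 T cells, and how many of them these libraries held was not tested. The single erythroid marker in the table, Alas2, gave 19 to 26.

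Compared with PAt and Arrested cells, persistent Foxp3 expressors had higher values of most of the 59 genes. Of the 59 genes, 55 were called higher, beside 4.74% of all tested genes, and 0 were called lower, beside 2.77%. By adjusted p alone the counts were 57 higher and 2 lower, beside 35.9% and 35.1%. They were the same at an unadjusted p under 0.05 in limma, beside 36.8% and 36.2% of all tested genes. The median log2 fold change was 2.36, a 5.13-fold difference, while the median of all tested genes was -0.01. The middle of the distribution was narrow, with quartiles of 1.88 and 2.82, and 41 genes exceeded 2. All persistent libraries were above all PAt and Arrested libraries in 57 genes, as in 24% of all tested genes. The 7 B-cell markers went the other way, with 3 called lower in persistent expressors, as did 1 of the 2 CD8 markers, Cd8a. None of the 6 tested T-cell markers was called, and 1 of 6 tested myeloid markers, Itgam, was called higher. The part of these other cells in the difference was not tested.

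**Figure D1:**
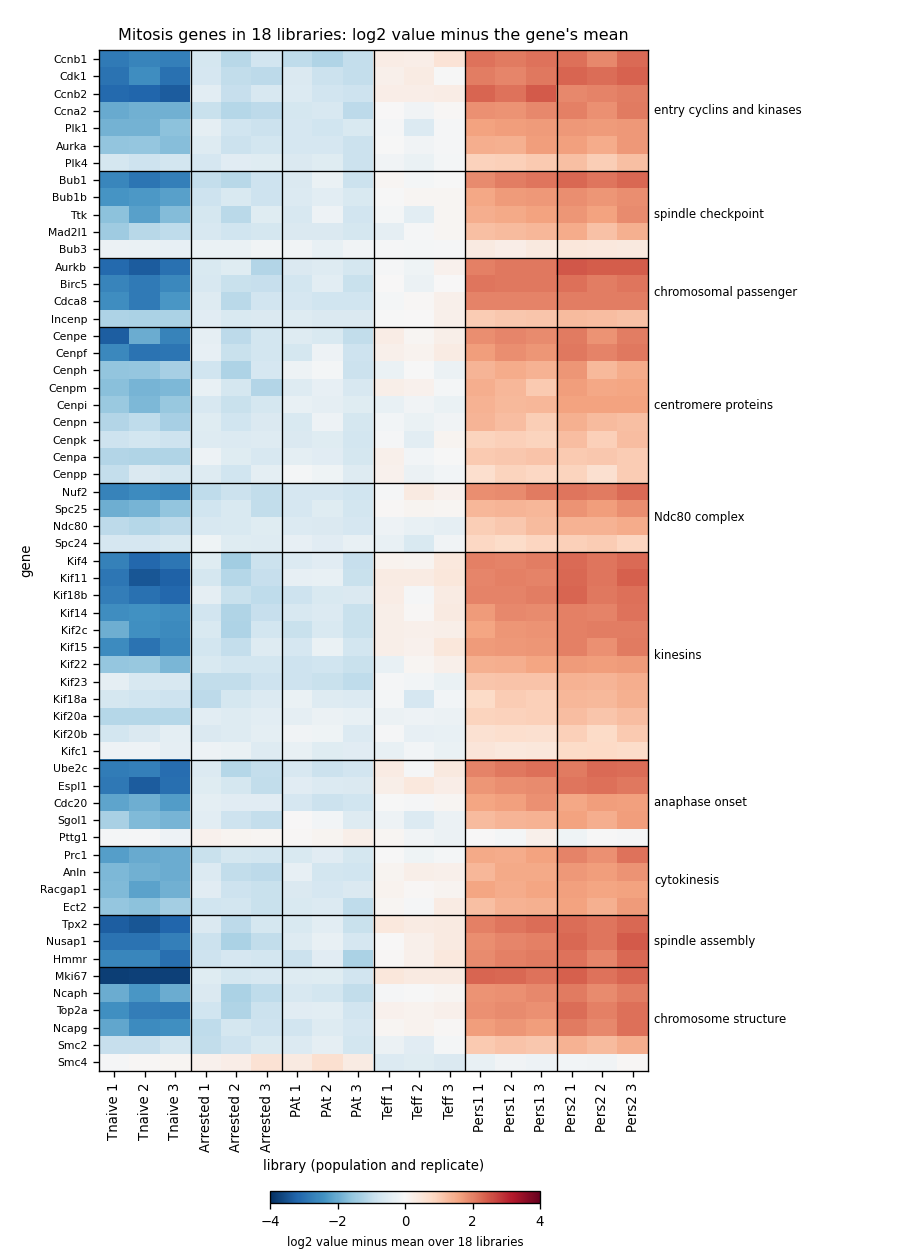
Heat map of the 59 genes (vertical axis, grouped by role) in the 18 libraries (horizontal axis, grouped by population). Colour gives the log2 value minus the gene's mean over the 18 libraries, from blue (lower) to red (higher). Pers1 and Pers2 are red for most genes and Tnaive blue, and Smc4 and Pttg1 are the rows that depart from this.

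Mki67, the gene of the Ki-67 protein that coats mitotic chromosomes and is used to stain dividing cells, read 11.73, 11.76 and 11.46 in PAt, 11.76, 11.53 and 11.61 in Arrested, 14.57, 14.53 and 14.42 in Pers1 and 14.62, 14.41 and 14.58 in Pers2. The populations of a pair overlapped and the pairs were far apart. The log2 fold change was 2.88 (SE 0.05). Birc5, Nuf2, Tpx2, Nusap1, Kif4, Bub1 and Aurkb lay between 2.88 and 2.94, so that Mki67 was one of a group of like size.

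Among the cyclins and kinases of mitotic entry, all 7 genes were called higher. Ccnb1, the B-type cyclin of Cdk1, had the largest log2 fold change of the 59, 3.10 (SE 0.08, adjusted p 1.2e-17). It read 10.90, 10.82 and 10.90 in Pers1 and 10.95, 10.66 and 11.01 in Pers2, against 7.71, 7.54 and 7.79 in PAt and 8.02, 7.62 and 7.96 in Arrested. No persistent library came near the others. Its partner kinase Cdk1 followed at 3.02, and the cyclins Ccnb2 and Ccna2 were at 2.84 and 2.83. The polo kinase Plk1 and the spindle pole kinase Aurka were at 2.37 and 2.29. Plk4, which starts the duplication of centrioles, was the lowest of the group at 1.64 (SE 0.07). It read 10.12 to 10.24 in Pers1 and 10.20 to 10.40 in Pers2, and 8.35 to 8.75 over the 6 PAt and Arrested libraries.

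In the spindle checkpoint, 4 of 5 genes were called. Bub1, a kinase of the unattached kinetochore, read 10.22, 10.38 and 10.48 in Pers1 and 10.64, 10.47 and 10.64 in Pers2, against 7.75, 8.05 and 7.48 in PAt and 7.37, 7.23 and 7.51 in Arrested. Its log2 fold change was 2.90 (SE 0.09), and those of Bub1b, Ttk and Mad2l1 were 2.38, 2.28 and 1.98. Bub3, the adaptor that brings Bub1 and Bub1b to the kinetochore, read 11.87, 11.78 and 11.92 in Pers1 and 11.98, 11.94 and 11.92 in Pers2, and between 11.23 and 11.37 over the PAt and Arrested libraries. These did not overlap, but the log2 fold change of 0.59 (SE 0.04, adjusted p 9.2e-12) was under the threshold. Bub3 thus differed by 1.51-fold where its partner Bub1 differed by 7.48-fold.

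All 4 subunits of the chromosomal passenger complex, which corrects faulty attachments and later guides cytokinesis, were called higher. The kinase Aurkb led with 2.94 (SE 0.10), from 10.59 to 10.69 in Pers1, 10.98 to 11.04 in Pers2, 7.86 to 8.05 in PAt and 7.40 to 8.07 in Arrested. The survivin gene Birc5 and the borealin gene Cdca8 were at 2.88 and 2.78. The scaffold Incenp, from 12.34 to 12.57 in the persistent libraries and 10.71 to 10.88 in the others, had the smallest of the 4 differences, 1.70 (SE 0.04).

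The 9 centromere proteins were all called. The kinesin-like Cenpe, which carries chromosomes towards the spindle equator, read 11.14, 11.24 and 11.18 in Pers1 and 11.38, 11.09 and 11.34 in Pers2, against 8.76, 8.69 and 8.29 in PAt and 8.92, 8.23 and 8.55 in Arrested, a log2 fold change of 2.65 (SE 0.15). Cenpf was at 2.53, and Cenph, Cenpm and Cenpi, of the constitutive centromere network, were at 2.11, 2.06 and 2.04. Cenpn and Cenpk were at 1.81 and 1.59, and Cenpa, the histone H3 variant that marks the centromere, was at 1.54. Cenpp, another protein of that network, was the smallest at 1.24 (SE 0.11), reading 7.0 to 7.35 in the persistent libraries and 5.54 to 6.27 in the others. The separation of Cenpp was complete all the same.

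The Ndc80 complex, the link between kinetochore and microtubule, had 4 of 4 genes called but an uneven spread. Nuf2 read 10.07, 10.10 and 10.30 in Pers1 and 10.37, 10.30 and 10.48 in Pers2, against 7.53, 7.54 and 7.43 in PAt and 7.19, 7.36 and 7.24 in Arrested, and differed by 2.89 (SE 0.07). Spc25 and Ndc80 differed by 2.28 and 1.85. Spc24, the partner of Spc25 in the same half-complex, read 9.91 to 10.17 in the persistent libraries and 8.66 to 8.98 in the others, a difference of 1.25 (SE 0.07).

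Of the 12 kinesins, 11 were called. The chromosome-arm kinesin Kif4 was the highest at 2.89 (SE 0.12), reading 10.35 to 10.43 in Pers1, 10.52 to 10.66 in Pers2, 7.46 to 7.93 in PAt and 6.98 to 7.90 in Arrested. Kif11, the motor that pushes spindle poles apart, was at 2.85, Kif18b at 2.82, Kif14 at 2.79, the microtubule depolymerase Kif2c at 2.70, Kif15 at 2.50, Kif22 at 2.36 and the cytokinesis motor Kif23 at 2.19. Kif18a, Kif20a and Kif20b were lower on this scale, at 1.72, 1.44 and 1.18. Kifc1, the minus-end motor that draws spindle poles together, read 10.90, 10.84 and 10.86 in Pers1, 11.19, 11.22 and 11.15 in Pers2, and 9.90 to 10.20 in the PAt and Arrested libraries. At 0.99 (SE 0.05) it stood just under the threshold of 1, and it was called without PAt replicate 1 or Arrested replicate 1 (both 1.02) or without Arrested replicate 2.

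For anaphase onset, 4 of 5 genes were called. Ube2c, the E2 enzyme of the anaphase-promoting complex, read 10.68, 10.80 and 10.88 in Pers1 and 10.76, 10.94 and 10.92 in Pers2, against 8.05, 7.83 and 7.91 in PAt and 8.13, 7.54 and 7.72 in Arrested, a log2 fold change of 2.97 (SE 0.10). Separase, Espl1, was at 2.62, the activator Cdc20 at 2.26, and shugoshin, Sgol1, which protects centromeric cohesion, at 1.93. Securin, Pttg1, the inhibitor of separase, did not share in this. It read 10.09, 10.14 and 10.27 in PAt, 10.20, 10.15 and 10.13 in Arrested, 10.06, 9.96 and 10.25 in Pers1 and 9.86, 10.01 and 9.99 in Pers2. The libraries overlapped, and its log2 fold change of -0.14 (SE 0.06, adjusted p 0.0394) had the opposite sign to that of Espl1.

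All 4 cytokinesis genes and all 3 spindle assembly factors were called, each group within a narrow range. The midzone bundler Prc1 was at 2.44, from 11.14 to 11.82 in the persistent libraries and 8.78 to 9.20 in the others. The scaffold Anln and the central spindle protein Racgap1 were at 2.33 and 2.25, and Ect2, which acts at the site of cleavage, was at 2.22, from 9.89 to 10.40 and from 7.70 to 8.14. Of the spindle assembly factors, Tpx2, the activator of Aurka, was at 2.89, from 11.37 to 11.64 and from 8.32 to 8.92, with Nusap1 at 2.89 and Hmmr at 2.86. Hmmr read 10.38 to 10.77 and 7.20 to 8.03.

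In chromosome structure, 5 of 6 genes were called, and a pair of partners differed in sign. Topoisomerase Top2a and the condensin subunits Ncaph and Ncapg were at 2.76, 2.80 and 2.64, all called higher. Smc2 and Smc4 encode the paired ATPases at the core of every condensin complex. Smc2 read 11.96, 12.05 and 11.97 in Pers1 and 12.30, 12.16 and 12.35 in Pers2, against 10.34, 10.55 and 10.17 in PAt and 9.91, 10.06 and 10.28 in Arrested, and was called higher by 1.91 (SE 0.07).

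Smc4 read 15.15, 15.43 and 15.12 in PAt, 14.95, 15.04 and 15.36 in Arrested, 14.50, 14.66 and 14.59 in Pers1 and 14.67, 14.65 and 14.84 in Pers2. All persistent libraries were below all PAt and Arrested libraries, as 21.8% of all tested genes were. The log2 fold change was -0.52 (SE 0.06, adjusted p 2.1e-07), past the adjusted p and under the threshold on size. Across the 6 populations Smc4 was highest in PAt (15.23 ± 0.17, SD, n = 3) and Arrested (15.11 ± 0.21), followed by Tnaive (14.81 ± 0.07), Pers2 (14.72 ± 0.10), Pers1 (14.58 ± 0.08) and Teff (14.25 ± 0.04). The neighbours PAt and Arrested, Tnaive and Pers2, and Pers2 and Pers1 overlapped. Per kilobase of annotated exon, Smc4 had the highest level of the 59 genes in every population, including Tnaive.

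**Figure D2:**
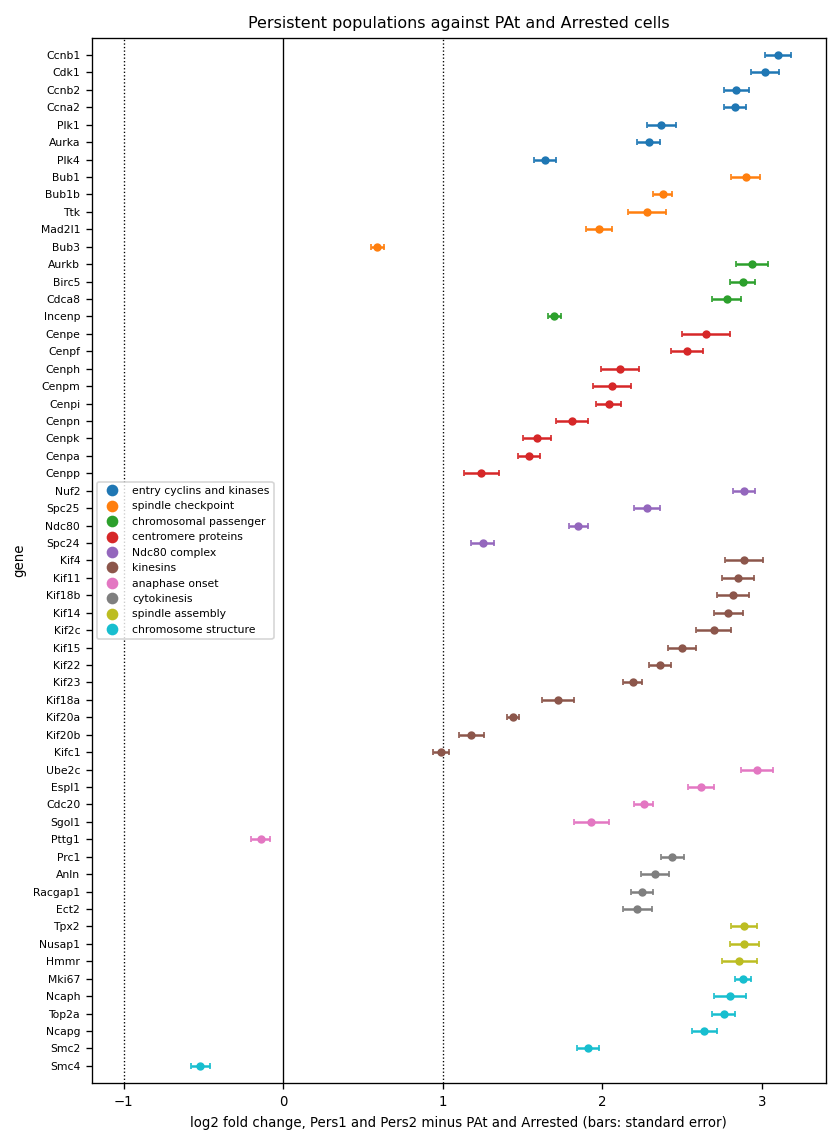
Log2 fold change of each of the 59 genes (horizontal axis, Pers1 and Pers2 minus PAt and Arrested; bars are the standard error from limma), with genes on the vertical axis in order of role. Dotted lines mark 1 and -1. Bub3, Kifc1, Pttg1 and Smc4 are the 4 genes that do not exceed 1.

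**Figure D3:**
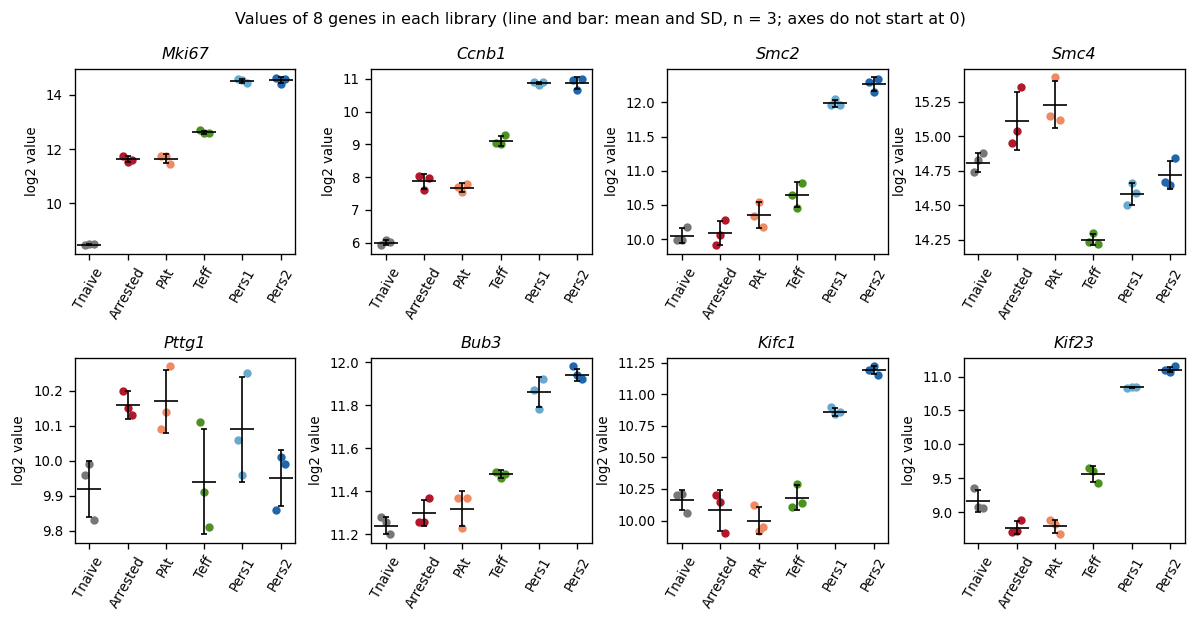
Log2 values (vertical axes, which do not start at 0) of 8 genes in each library, by population. Points are libraries, and lines with bars are means and SD, n = 3. Mki67, Ccnb1 and Smc2 are highest in Pers1 and Pers2, and Smc4 is highest in PAt and Arrested. For Pttg1, Pers1 overlaps every other population, while all PAt and Arrested libraries lie above Tnaive.

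Genes with low values in naive cells had the larger differences. Across the 59 genes, the mean log2 value in Tnaive, not scaled to length, and the log2 fold change between persistent expressors and PAt and Arrested had a Pearson correlation of -0.72 and a Spearman correlation of -0.54, given as a description, since the genes share the libraries and one transform and are not independent replicates. The 29 genes with Tnaive values of 5.2 to 6.54 had a median log2 fold change of 2.78, and the 30 with values of 6.64 to 14.81 had 2.20. Smc4, Bub3, Kifc1 and Pttg1, the 4 that were not called, are in the second set.

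Promoter sequences were examined because most of these genes differed between populations in the same direction. RefSeq promoters on GRCm38.p6, running 250 bases before to 50 after a start, were at hand for 52 of the 59 genes, as 57 promoters in all, with Sgol1 matched as Sgo1. None was used for Ccna2, Aurkb, Incenp, Spc24, Kif20a, Tpx2 and Smc4. The cell cycle homology region of G2 and mitosis genes is written TTTGAA or TTCGAA, and the CCAAT box is a common neighbour of it. Below are the bases upstream of both the RefSeq start and the gene's first annotated base in GENCODE, beginning 180 bases before the RefSeq start, with these letters on either strand in capitals. None of them lies in an annotated exon. Mki67, Cdk1, Cdc20 and Ncapg are shown as called genes that hold both elements, and do not stand for all called genes. Smc2 is the called partner of Smc4, and Ccnb1 had the largest fold. The whole promoter of Ccnb1 held CCAAT at -99 and -67, the latter outside the bases shown, but neither TTTGAA nor TTCGAA. The windows are chr7:135716380-135716559 (minus strand) for Mki67, chr10:69352939-69353092 (minus) for Cdk1, chr4:118437353-118437523 (minus) for Cdc20, chr5:45669745-45669918 (plus) for Ncapg, chr4:52439041-52439220 (plus) for Smc2 and chr13:100786571-100786666 (minus) for Ccnb1.
Mki67: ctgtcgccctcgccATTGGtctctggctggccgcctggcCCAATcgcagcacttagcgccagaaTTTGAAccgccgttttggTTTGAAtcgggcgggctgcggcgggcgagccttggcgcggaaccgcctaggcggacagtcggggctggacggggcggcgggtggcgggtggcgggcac
Cdk1: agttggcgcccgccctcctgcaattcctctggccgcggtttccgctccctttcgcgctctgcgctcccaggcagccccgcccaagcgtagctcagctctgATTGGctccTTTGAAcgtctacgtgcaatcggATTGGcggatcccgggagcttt
Cdc20: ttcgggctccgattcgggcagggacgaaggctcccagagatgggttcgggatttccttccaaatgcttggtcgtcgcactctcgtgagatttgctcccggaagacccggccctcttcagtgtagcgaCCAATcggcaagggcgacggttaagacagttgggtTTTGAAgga
Ncapg: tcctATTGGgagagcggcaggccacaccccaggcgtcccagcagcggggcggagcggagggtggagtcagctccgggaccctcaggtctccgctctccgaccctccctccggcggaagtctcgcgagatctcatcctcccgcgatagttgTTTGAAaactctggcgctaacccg
Smc2: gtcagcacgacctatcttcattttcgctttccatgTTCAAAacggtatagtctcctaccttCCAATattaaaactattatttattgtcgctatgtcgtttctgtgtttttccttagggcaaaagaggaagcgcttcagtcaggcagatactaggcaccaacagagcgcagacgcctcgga
Ccnb1: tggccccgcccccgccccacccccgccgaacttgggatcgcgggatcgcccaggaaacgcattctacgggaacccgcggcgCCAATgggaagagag

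TTTGAA was in 66.7% of the members' promoters and in 17.9% of all 32851 promoters of the same length, and TTCGAA in 8.77% and 1.56%. CCAAT was in 75.4% and 37.4%, and at least 2 copies of it in 43.9% and 11.7%. CCAAT together with TTTGAA or TTCGAA was in 63.2% of the members' promoters and 7.52% of all. Both strands were searched, and TTTGAA or TTCGAA can overlap CCAAT in at most 1 letter. Of the genes that were not called, Bub3 and Kifc1 held TTTGAA and CCAAT in this window and Pttg1 held neither. These are matches of letters and show no binding.

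Among Timer-negative cells, activated Teff cells had much more mitotic RNA than Tnaive cells. Of the 59 genes, 44 were called higher, beside 8.88% of all tested genes, and 0 lower, beside 2.28%. By adjusted p alone 56 were higher and 1 lower, beside 31.3% and 27.7%. The counts were the same at an unadjusted p under 0.05 in limma, beside 33% and 29.7%. Over all 59 the median log2 fold change was 1.99. Mki67 had the largest at 4.14 (SE 0.07), from 8.46, 8.50 and 8.49 in Tnaive to 12.69, 12.59 and 12.59 in Teff. Tpx2 was at 3.66, the motor Kif11 at 3.55 and Ccnb2 at 3.48. All Teff libraries were above all Tnaive libraries in 56 genes, as in 34.1% of all tested genes.

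Several genes were under the threshold on size between Tnaive and Teff. Plk4, Smc2 and Spc24 were at 0.59, 0.60 and 0.32, and Bub3 was at 0.23. Each passed the adjusted p from limma (2.1e-05, 3.1e-05, 0.0125 and 6.9e-04), with all Teff libraries above all Tnaive libraries. Kifc1 and Pttg1 were both at 0.02, with overlapping libraries. Smc4 was again opposite in sign, at -0.56 (SE 0.09, adjusted p 1.3e-05), from 14.74, 14.83 and 14.88 in Tnaive to 14.23, 14.30 and 14.22 in Teff. All 7 B-cell markers, 3 of 6 tested myeloid markers and 1 of the 2 CD8 markers, Cd8a (2.06), were called higher in Teff than in Tnaive, and their part in the difference was not tested. Of the 6 tested T-cell markers Cd28 (1.05) was also called higher.

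Persistent expressors also exceeded Teff cells. Of the 59 genes, 54 were called higher, beside 4.28% of all tested genes, and 0 lower, beside 4.03%. At an unadjusted p under 0.05 in limma 58 were higher and 0 lower, beside 31.6% and 30.8% of all tested genes. Those higher by adjusted p alone were also 58, beside 29.8%. Across the 59, the median log2 fold change was 1.68. Aurkb, Birc5 and Bub1 had the largest, at 2.28, 2.20 and 2.15, and Mki67 and Ccnb1 were at 1.90 and 1.77. All persistent libraries were above all Teff libraries in 58 genes, as in 24.9% of all tested genes. The genes not called were Cenpp at 0.87, Kifc1 at 0.85, Bub3 at 0.42, Smc4 at 0.40 and Pttg1 at 0.08. In the same comparison 6 of 7 B-cell markers, both CD8 markers and 4 of 6 tested myeloid markers were called lower in persistent expressors, and their part in it was not tested.

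Against Tnaive cells, persistent expressors had 55 genes called higher, beside 10.6% of all tested genes, and 0 lower, beside 4.78%. At an unadjusted p under 0.05 in limma 57 were higher and 1 lower, beside 39.2% and 36.4% of all tested genes. Those higher by adjusted p alone were also 57, beside 38.5%. Over all 59 the median log2 fold change was 3.54. Mki67 was at 6.04, a 65.8-fold difference, Tpx2 at 5.47 and Aurkb at 5.40. Pttg1 at 0.09 and Smc4 at -0.16 had libraries that overlapped those of Tnaive, and Bub3 and Kifc1 were at 0.66 and 0.87. Of the 7 B-cell markers Cd79b (2.03) was called higher in persistent expressors than in Tnaive, as was Lyz2 (1.49) of the 6 tested myeloid markers, and their part in it was not tested.

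PAt and Arrested cells were not at the naive level in most of the 59 genes. Compared with Tnaive, 37 of the 59 genes were called higher, beside 6.63% of all tested genes, and 0 lower, beside 1.27%. By adjusted p alone 51 were higher and 1 lower, beside 26.9% and 23.8%. The counts were the same at an unadjusted p under 0.05 in limma, beside 29.2% and 26.9%. Across the 59, the median log2 fold change was 1.20. Mki67 was at 3.16, Tpx2 at 2.58 and Kif11 at 2.46. The libraries of Smc2 and Plk4 (both 0.17), Bub3 (0.06), Cenpk (0.22), Kif18a and Kif20b (both 0.18) and Kifc1 (-0.12) overlapped those of Tnaive. None of these genes passed the adjusted p from limma. Cenpp (0.33) overlapped too but passed it. All PAt and Arrested libraries of Pttg1 were above Tnaive, at 0.24 (adjusted p 0.0105). Of the 7 B-cell markers 6 were called higher in PAt and Arrested than in Tnaive. Of the 6 tested myeloid markers Lyz2 (1.68) was called higher, and Itgam (-1.97) and Fcgr3 (-1.24) were called lower. The part of these other cells in it was not tested.

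Kif23, which forms the central spindle complex with Racgap1, was the lowest of the 59 in that comparison. It read 8.88, 8.82 and 8.68 in PAt, 8.71, 8.72 and 8.89 in Arrested, and 9.35, 9.08 and 9.06 in Tnaive, so that no PAt or Arrested library reached Tnaive. The log2 fold change was -0.38 (SE 0.07, adjusted p 2.3e-04), under the threshold on size. Kif23 was nevertheless called higher in persistent expressors, which read 10.83 to 11.15.

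Against Teff cells, PAt and Arrested cells had lower values by a moderate amount. Of the 59 genes, 9 were called lower, beside 4.04% of all tested genes, and 0 higher, beside 2.84%. By adjusted p alone 53 were lower, beside 27.9% of all tested genes, and 2 were higher, beside 24.8%. At an unadjusted p under 0.05 in limma 54 were lower and 2 higher, beside 30.4% and 27.3% of all tested genes. The median log2 fold change was -0.75, so that many genes lay near the threshold of 1. Ccnb1 was the furthest at -1.33 (SE 0.10), from 9.03, 9.0 and 9.29 in Teff. The others called were Kif11 (-1.09), Tpx2 (-1.08), Ube2c (-1.06), Kif2c and Kif14 (both -1.04), Cdk1 (-1.03), Hmmr (-1.02) and Kif4 (-1.0), and Mki67 at -0.98 was just outside. The count was 4 without PAt replicate 3 and 5 without Teff replicate 3. Ccnb1 and Tpx2 were called in all 9 fits that left out 1 library. The other genes called lost the call, at -0.88 to -1.0, in 1 to 3 of those fits, without Teff replicate 2 or 3, PAt replicate 3 or Arrested replicate 2 or 3, while Mki67 gained it in 4. Smc4 was higher in PAt and Arrested by 0.92 (SE 0.08, adjusted p 1.7e-09) and Pttg1 by 0.22, both not called. All 6 tested myeloid markers and 1 of 2 CD8 markers were called lower in PAt and Arrested than in Teff, and their part in it was not tested. Of the 6 tested T-cell markers 2, Cd4 and Cd28 (-1.14), were also called lower.

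**Figure D4:**
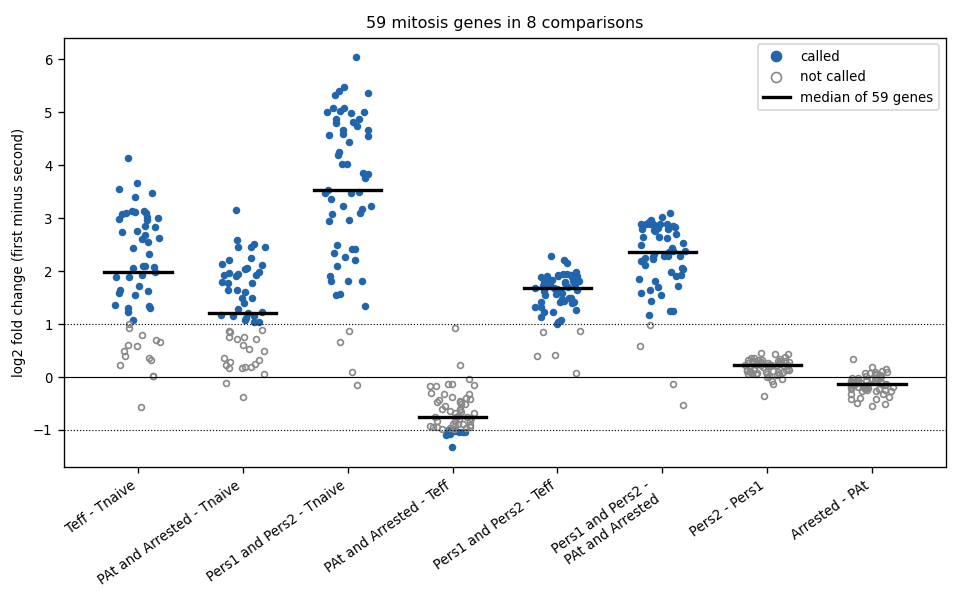
Log2 fold change (vertical axis, first group minus second) of the 59 genes in 8 comparisons (horizontal axis). Filled points are called, open points are not, and bars are medians over the 59 genes. The median was 2.36 for persistent expressors against PAt and Arrested, -0.75 for PAt and Arrested against Teff, and 0.22 and -0.13 within the pairs. Comparisons share libraries and are not independent of each other.

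The population means ran in the order Tnaive, PAt and Arrested, Teff, persistent expressors in 54 of the 59 genes. In 41 of them the libraries themselves were in that order without any overlap between steps, beside 2.77% of all tested genes. The 5 genes with another order of means were Kif23, Kifc1, Pttg1, Sgol1 and Smc4. For Sgol1, PAt (8.0, 7.88 and 7.48) overlapped Teff (7.81, 7.44 and 7.76). Tnaive was lowest in 56 genes. The shares of all tested genes with this order of means, or with Tnaive lowest, were not counted.

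Within the persistent pair, Pers2 cells, with more Blue and more Red, differed from Pers1 cells by -0.35 to 0.45 in the log2 fold change of each of the 59 genes. Of the 59 genes, 0 were called higher, beside 0.144% of all tested genes, and 0 lower, beside 0.0455%. At an unadjusted p under 0.05 in limma 21 were higher, beside 12.8% of all tested genes, and 1 lower, beside 11.2%. The median log2 fold change was 0.22, and 54 of 59 were above 0, as were 50.4% of all tested genes. By adjusted p alone 6 were higher, beside 6.02% of all tested genes. These were Prc1 (0.45), Spc25 (0.44), Ncapg (0.37), Kifc1 (0.32), Ndc80 (0.31) and Kif20a (0.27). Prc1 read 11.16, 11.14 and 11.28 in Pers1 and 11.63, 11.47 and 11.82 in Pers2. Ccnb2 was the furthest in the other direction, at -0.35 (SE 0.11, adjusted p 0.0568), from 11.28 ± 0.14 (SD, n = 3) in Pers1 to 10.93 ± 0.07 in Pers2. The libraries of both genes did not overlap, and the difference of Ccnb2 did not pass the test.

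Between Arrested and PAt cells the differences were likewise small. Of the 59 genes, 0 were called higher in Arrested, beside 0.0455% of all tested genes, and 0 lower, beside 0.0758%. At an unadjusted p under 0.05 in limma 1 was higher, beside 7.92% of all tested genes, and 15 lower, beside 10.2%. The median log2 fold change was -0.13, and 13 of 59 were above 0, as were 47.7% of all tested genes. By adjusted p alone, 1 gene was higher in Arrested, beside 2.07% of all tested genes, and 2 lower, beside 2.97%. The gene that was higher was Cdc20 (0.34, adjusted p 0.0340), which read 8.68, 8.61 and 8.61 in Arrested and 8.40, 8.20 and 8.28 in PAt. The lower genes were Nusap1 (-0.54) and Top2a (-0.41). Top2a read 11.06, 10.66 and 11.01 in Arrested and 11.41, 11.45 and 11.10 in PAt, without overlap.

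**Figure D5:**
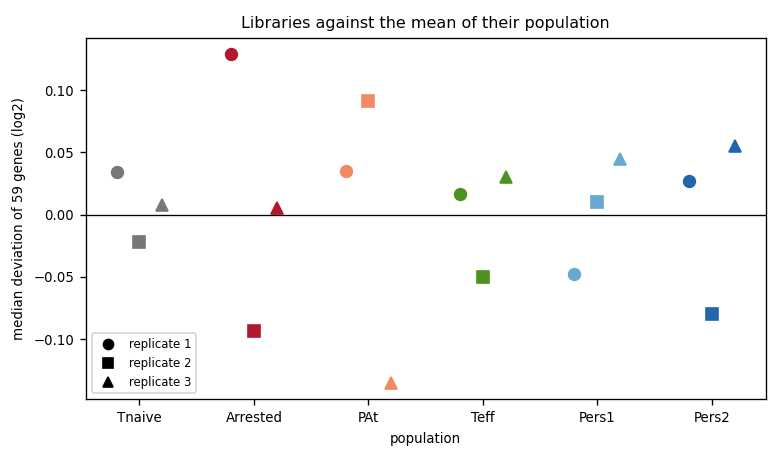
Median over the 59 genes of each library's deviation from the mean of its population (vertical axis, log2), by population (horizontal axis), with symbols for the replicate number. The libraries ran from -0.135 (PAt replicate 3) to 0.129 (Arrested replicate 1).

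Replicates of a population differed from each other in the 59 genes together. The median deviation of the 59 from the population mean ran from -0.135 in PAt replicate 3 to 0.129 in Arrested replicate 1, while that of all tested genes stayed between -0.004 and 0.004. The 6 PAt and Arrested libraries thus covered -0.135 to 0.129, beside a median difference of -0.13 between Arrested and PAt. The Pers1 and Pers2 libraries covered -0.08 to 0.055, beside a median difference of 0.22, and the median level of the 59 was 10.68 to 10.86 in the Pers1 libraries and 10.92 to 10.95 in the Pers2 libraries.

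Other genes of the same machinery, taken from lists by function, were less uniform. Of 17 further spindle and cytokinesis genes, 15 were called higher in persistent expressors than in PAt and Arrested, from Psrc1 at 0.59 to Cep55 at 2.82. Of 16 regulators of entry into mitosis 11 were called, up to the kinase Nek2 at 3.15, with Lin9 the lowest at 0.27. Of 22 further kinetochore genes 12 were called, from Cenpo at 0.04 to Casc5 at 2.67, and of 8 further checkpoint genes 5, from Mad2l1bp at 0.07 to Kntc1 at 2.59. Of 10 replication licensing genes, which act before S phase, 9 were called, from Cdt1 at 0.79 to Cdc6 at 2.94. No gene of these lists was called lower. Of all tested genes, 4.74% were called higher and 2.77% lower in this comparison.

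Other lists had fewer calls, beside the same 4.74% of all tested genes called higher and 2.77% called lower. Of 17 genes of the anaphase-promoting complex and its regulators 2 were called higher, with a median of 0.18. The highest was the inhibitor Fbxo5 at 1.35 and the lowest Anapc2 at -0.15. Of 11 cohesin genes 2 were called, with a median of 0.18, from the loader Nipbl at -0.43 to sororin, Cdca5, at 2.64. Of the 4 condensin genes outside the 59, 2 were called, Ncapg2 at 2.67 and Ncapd2 at 1.74. The lowest was Ncapd3 at -0.11, not called. Of 13 kinesins of intracellular transport 0 were called either way, from Kifc3 at -0.91 to Kif3a at 0.35. At an unadjusted p under 0.05 in limma 4 of them were higher and 5 lower, beside 36.8% and 36.2% of all tested genes. Their median was -0.01, that of all tested genes. The difference between these lists and the 59 genes was not tested.

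Some values could hold reads of other genes. In the GENCODE vM21 annotation of GRCm38, 15 of the 59 share exonic bases with another gene and 12 with a protein-coding gene on the opposite strand. Whether the counting used strand is not given in the sources used here. The longest overlaps, in bases, were those of Kif20a with Cdc23 (1271), Ncapg with Lcorl (944), Prc1 with Rccd1 (911), Kif4 with Pdzd11 (832), Ube2c with Tnnc2 (592) and Ccna2 with Exosc9 (510). A near-identical transcript lies elsewhere in the genome for 7 genes. Ccnb1 matches a pseudogene at 99.2% identity, and Kifc1 matches Kifc5b at 95.9% over 2378 bases. Values of these genes are uncertain to that extent. The genes on which the contrasts turn are Smc4 at chr3:69004738-69034623, Smc2 at chr4:52439243-52488260, Pttg1 at chr11:43420250-43426251 and Bub3 at chr7:131560222-131571895.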

How the data were processed

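RNA-seq was analysed in 18 libraries, 3 from each of 6 populations, and the log2 values the authors deposited were used as they stand, with no pseudocount. As the paper's methods and the submitters' processing notes describe, stranded mRNA libraries were processed with CASAVA 1.8.2, FastQC 0.11.2 and TopHat2 2.0.9 on mm10, and with DESeq2. The form of the values is that of its regularised log transform. The counter is not given in the sources used here, and the depth per library is unknown. Errors thus come from the spread among replicates, pooled over all 6 populations and drawn by limma towards a trend over all tested genes. The error of a comparison therefore also holds the spread of populations outside it. No count test was run.

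One linear model with 6 populations was fitted with limma 3.58.1 (R 4.3.3) to the 13190 genes with a mean of at least 3 (2212 were left out), with a trend in the variance, 12 residual degrees of freedom and Benjamini-Hochberg adjustment over all of them. All p-values are two-sided and come from this fit. Persistent expressors are the equal mean of Pers1 and Pers2. Gene tests were checked on simulated data. Exon overlaps and copies came from GENCODE vM21, with minimap2 2.31-r1302 (at least 95% identity over 200 bases), and promoters from RefSeq.

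All 59 members are named by role. Library values are given for Mki67, for the highest and lowest difference in each role and for members not called, and other values were added where the text needed them. From the other lists, the highest and lowest gene are named. The members and lists were chosen with earlier results of these data known. Alternatives were another filter, no threshold on the fold, treat, centring each library, only the populations compared, no variance trend, a replicate block, leaving out each library, and a promoter window of 200 bases.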

Additional observations from a re-analysis of the deposited data

How the results depend on the processing

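Between 46 and 58 of the 59 genes were called higher in persistent expressors than in PAt and Arrested, Teff or Tnaive under every alternative run. Of all tested genes, 4.74%, 4.28% and 10.6% were called higher in the main fit, and 35.9%, 29.8% and 38.5% by adjusted p alone. The shares for other counts by adjusted p alone are given with each comparison above. Shares of all tested genes under the remaining alternatives were not counted. Leaving out single libraries gave 55 to 56, 51 to 54 and 55 genes in these 3 comparisons, 43 to 45 for Teff against Tnaive, 36 to 37 for PAt and Arrested against Tnaive, and 0 within each pair. In PAt and Arrested against Teff the count lower ran from 4 to 13. By adjusted p alone, 2 were lower in persistent expressors than in PAt and Arrested, 1 in Teff than in Tnaive, 1 in PAt and Arrested than in Tnaive, 53 lower and 2 higher in PAt and Arrested than in Teff, 6 higher in Pers2 than in Pers1, and 1 higher and 2 lower in Arrested than in PAt. Treat against a log2 fold change of 1 left 1 gene lower in PAt and Arrested than in Teff, by its stricter test. Centring each library moved the medians by up to 0.144 and reversed 3 small differences, Pttg1 between persistent expressors and Tnaive (-0.05) and Kifc1 and Pttg1 between Teff and Tnaive (both -0.06). Without single libraries, the last of these ran from -0.03 to 0.06 for Kifc1 and from -0.06 to 0.08 for Pttg1, and Spc24 between PAt and Arrested and Teff ran from -0.16 to 0.06. None of these 4 passed the test. The promoter shares in the shorter window were 63.2% of the members' promoters and 11.2% of all for TTTGAA, and 68.4% and 28.6% for CCAAT.

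The replicate block changed none of the member counts (55 higher in persistent expressors than in PAt and Arrested, and 9 lower in PAt and Arrested than in Teff). The labels do not say that a number marks 1 pool of mice. The paper describes 3 groups made from pools of 3 mice, so libraries of different populations may share mice. Over 45 pairs of libraries with the same number the median correlation of deviations from the population means was 0.166 (-0.206 to 0.436), and over 90 pairs with different numbers it was -0.064. Of the 45 pairs with the same number, 42 had a correlation above 0. The unknown depth, 3 replicates a population and the draw of low genes to their mean limit all of these values.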
